A study of Mus musculus with 8 samples.

Results

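The interleukin-1 family and the inflammasome genes were followed in the aged mouse RPE/choroid, the retinal pigment epithelium with the vascular layer beneath it. The members were 10 genes: the ligands Il1a, Il1b, Il18 and Il33, the receptor antagonist Il1rn, the receptors Il1r1, Il1r2 and Il1rl1, the protease Casp1 and the sensor Nlrp3. All probe sets annotated to a single one of these genes were taken, whatever their values. Of the 45037 probe sets that were not controls, 12 met this rule, and they covered 9 of the 10 genes. Il1rl1, the receptor of interleukin 33, had no probe set of its own in the annotation used and was not analysed here. RNA came from male C57BL/6 mice, with no treatment named, of 4 months (young) or 26 months (old), with 4 arrays at each age. Each array held the pooled RPE/choroid of 4 eyes from 2 animals, so the replicates were pools and not single mice.

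Interleukin 1 alpha and interleukin 1 beta act on the same signalling receptor, Il1r1, which recruits the adaptor Myd88 and the Irak kinases and leads to NF-kappaB. Il1rn occupies that receptor without signalling, and Il1r2 binds the ligand as a decoy. Interleukin 1 beta and interleukin 18 are made as inactive precursors that caspase 1 cleaves after an inflammasome, such as that of Nlrp3 with the adaptor Pycard, has assembled. In the RPE/choroid this machinery is known both from resident macrophages and from the RPE itself, and has been studied in macular degeneration. Arrays measure transcripts, and neither cleavage nor secretion of a cytokine was read out here.

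The promoters of 3 members are shown, those of Casp1, Il1rn and Il1b. Every probe set of Casp1 and Il1rn was higher in old RPE/choroid, and Il1b is the ligand that Il1rn opposes and caspase 1 cleaves. The only probe set of Il1a was higher too, and its window is not printed. RefSeq sequence of build GRCm38.p6 is given for the 250 bases before the transcription start, 5′ to 3′ on the strand of the gene. Capitals mark matches on either strand to any of 7 forms. They were the TATA box form TATAAA, the AP-1 form TGANTCA, the core GAGGAA that PU.1 and related factors bind, the STAT form TTCNNNGAA, an interferon response form, a loose NF-kappaB form and a stricter NF-kappaB form nested in it.
Il1rn chr2:24336610-24336859 (plus strand): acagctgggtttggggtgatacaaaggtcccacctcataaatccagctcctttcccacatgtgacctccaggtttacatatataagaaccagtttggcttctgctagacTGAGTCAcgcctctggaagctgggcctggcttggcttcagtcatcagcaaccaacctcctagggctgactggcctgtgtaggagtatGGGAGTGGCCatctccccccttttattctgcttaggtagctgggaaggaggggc
Il1rn chr2:24345121-24345370 (plus strand): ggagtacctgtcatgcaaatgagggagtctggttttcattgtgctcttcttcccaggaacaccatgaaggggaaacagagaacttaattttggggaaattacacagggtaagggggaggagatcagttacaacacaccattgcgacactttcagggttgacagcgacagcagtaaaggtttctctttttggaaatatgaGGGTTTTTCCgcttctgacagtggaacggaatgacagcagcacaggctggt
Casp1 chr9:5298267-5298516 (plus strand): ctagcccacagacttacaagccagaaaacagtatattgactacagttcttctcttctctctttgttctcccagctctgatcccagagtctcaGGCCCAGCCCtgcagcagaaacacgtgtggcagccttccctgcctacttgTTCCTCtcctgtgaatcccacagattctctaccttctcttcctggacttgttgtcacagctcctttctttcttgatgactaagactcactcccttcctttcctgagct
Il1b chr2:129371140-129371389 (minus strand): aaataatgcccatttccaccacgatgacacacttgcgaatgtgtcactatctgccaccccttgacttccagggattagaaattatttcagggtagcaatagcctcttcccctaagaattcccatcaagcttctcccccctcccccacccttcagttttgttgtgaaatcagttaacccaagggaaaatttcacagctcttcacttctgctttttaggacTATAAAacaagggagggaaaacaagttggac
The first Il1rn window held an AP-1 match, TGAGTCA, which ended 135 bases before the start, and a loose NF-kappaB match. The second Il1rn window lies before a start further into the gene, and its loose match, GGGTTTTTCC, also met the stricter form. RefSeq has 3 windows for Il1rn, and the one not printed, chr2:24345041-24345290, overlaps the second and held none of the 7 forms. The Il1b window held a TATA box that began 31 bases before the start. The Casp1 window held GAGGAA on the opposite strand, as TTCCTC, and a loose NF-kappaB match. Of 32851 windows of this length, 12.4% held TATAAA, 6.75% TGANTCA, 23.3% GAGGAA, 7.02% TTCNNNGAA, 2.98% the interferon response form, 45.8% the loose NF-kappaB form and 1.41% the stricter one, so that several of these matches are common. In all, 12 motif forms were searched and 7 were marked, so the matches are a description of the letters and no test was made.

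Among the 12 probe sets of the members, 6 were higher in old RPE/choroid at an adjusted p under 0.05, none was lower and 6 did not pass. Of the latter, Il18 was lower and Nlrp3 was higher at an unadjusted limma p under 0.05. Over all probe sets, 9.22% were higher and 8.75% were lower by the same limma test. The members' median log2 fold change was 0.32, and that of all probe sets was -0.02. At the study's own bar for limma, a more than 2-fold change at an adjusted p below 0.01, 2 member probe sets passed, 1 each for Casp1 and Il1rn. Of all probe sets, 0.764% passed in that direction. The study set this bar on RMA values after dropping probe sets called absent in every sample, and no such filter was used here. Old and young arrays did not overlap for 8 of the 12, with old above young in 7 and below in 1. Such a separation was found upward in 12.3% and downward in 12% of all probe sets. The study itself listed Il1rn and Casp1 as changed on these same arrays, so their direction here is not independent evidence. In pooled tissue, fewer cells of a type and less RNA per cell cannot be told apart.

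**Figure D1:**
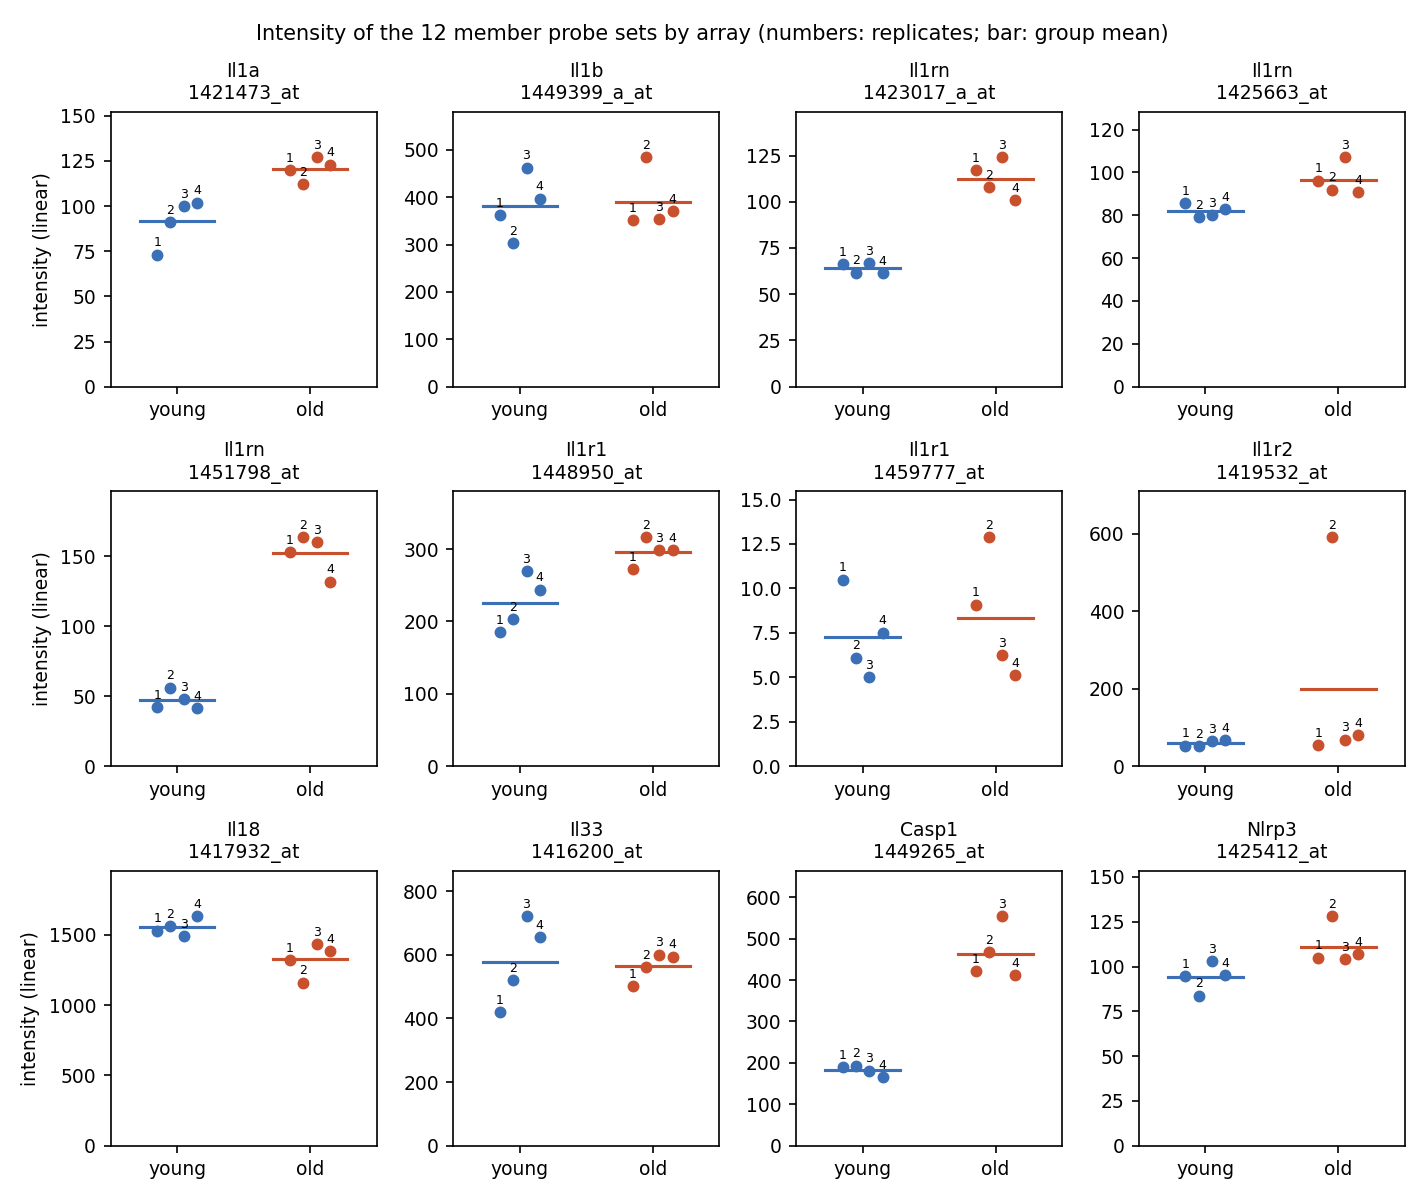
Linear intensity of the 12 member probe sets in the 4 young and the 4 old arrays (points, with replicate numbers), with the group mean as a bar and each axis starting at 0. Casp1 and the Il1rn probe sets separate the ages, Il1b and Il33 overlap, and Il1r2 is at 592 in old replicate 2 alone.

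Casp1, which encodes the protease that processes interleukin 1 beta and interleukin 18, showed the largest change among these genes after Il1rn. Its intensities were 189, 193, 181 and 165 in young replicates 1 to 4 and 421, 468, 554 and 412 in old replicates 1 to 4. Every old array lay above every young array by more than the spread of either age. The young mean was 182 ± 12.1 and the old mean 464 ± 64.8 (SD, n = 4). Casp1 rose by 1.34 on the log2 scale (SE 0.10, limma adjusted p = 5.8e-05), or 2.53-fold with a 95% interval of 2.17 to 2.95. With each array left out in turn the log2 change lay between 1.25 and 1.39.

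Il1rn, the receptor antagonist, was read by 3 probe sets that all rose, but by different amounts. Probe set 1451798_at read 42.1, 56.2, 48 and 41.7 in the young arrays and 153, 164, 160 and 132 in the old ones. Probe set 1423017_a_at read 66.1, 61.6, 66.8 and 61.3 when young and 117, 108, 124 and 101 when old. Probe set 1425663_at read 85.7, 79.2, 80 and 82.7 when young and 96.1, 92, 107 and 90.9 when old. None of the 3 overlapped between the ages, although for the last the lowest old and the highest young array were close. The young values of all 3 were below the median probe set of an array, which read 128.6 to 135.4.

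The log2 fold changes of Il1rn were 1.70 (SE 0.11, limma adjusted p = 3.7e-05), 0.81 (SE 0.07, adjusted p = 0.000169) and 0.24 (SE 0.07, adjusted p = 0.0369) in that order. Against 1425663_at, the change was larger by 1.46 (SE 0.14) for 1451798_at and by 0.57 (SE 0.05) for 1423017_a_at, each with an adjusted p of 0.0429 over 3 pairs of probe sets in a two-sided exact permutation test of the 70 splits of the arrays. The smallest raw p that this test allows is 0.0286. The size of the Il1rn change thus depended on the probe set, from 1.18-fold to 3.25-fold, and which transcripts each reads was not tested. By real-time PCR the study found a larger rise of Il1rn than on its arrays. Where genes are counted below, each counts through the probe set whose log2 values averaged highest over all 8 arrays. For Il1rn this representative is 1425663_at, the one with the smallest change. Its call was lost in 6 of the 8 fits with an array left out (limma adjusted p from 0.054 to 0.0947, without any of the young arrays or without old replicate 1 or 3), whereas the other 2 probe sets passed in all 8.

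Of the agonists of Il1r1, Il1a passed and Il1b did not, and the difference between them was not tested. Il1a, which encodes the cell-associated interleukin 1 alpha, read 73.1, 91.1, 99.8 and 102 in young and 120, 112, 127 and 123 in old arrays, with no overlap. All these values were below the median probe set of an array, which read 128.6 to 135.4, and detection calls were not used. Il1a therefore counts as a low signal. It rose by 0.41 on the log2 scale (SE 0.10, limma adjusted p = 0.0256), and the call was lost without old replicate 3 (adjusted p = 0.0707) or old replicate 4 (adjusted p = 0.0569).

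Il1b, the secreted form that needs caspase 1, read 362, 303, 462 and 397 in young and 351, 484, 354 and 370 in old arrays. The ages overlapped, and 3 of the 4 old arrays lay between 351 and 370 with old replicate 2 above them. The log2 fold change was 0.04 (SE 0.14, limma adjusted p = 0.887), with a 95% interval from -0.28 to 0.35, which leaves room for a change of up to 1.28-fold upward.

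Il18, the other substrate of caspase 1, read 1530, 1562, 1491 and 1632 in young and 1321, 1161, 1435 and 1383 in old arrays. It was the only member with every old array below every young one. The log2 fold change was -0.23 (SE 0.07, 95% interval -0.40 to -0.07), just short of the threshold with a limma adjusted p of 0.0549. It passed under quantile normalization (adjusted p = 0.0261), with low probe sets removed (0.0261), with log2(value + 16) (0.0385) and with a trended, robust variance (0.0187), and it did not under median centring (0.0958) or with any array left out (0.0538 to 0.127).

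Il33, an alarmin held in the nucleus of barrier and endothelial cells, read 419, 521, 721 and 655 in young and 501, 561, 601 and 594 in old arrays. The old arrays lay wholly within the range of the young ones. Its log2 fold change was -0.01 (SE 0.15, limma adjusted p = 0.972, 95% interval -0.36 to 0.34).

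Il1r1, the signalling receptor, read 185, 203, 270 and 244 in young and 272, 317, 299 and 299 in old arrays with probe set 1448950_at. The ages did not overlap, but the highest young array, 270, all but met the lowest old one, 272. The receptor transcript rose by 0.41 on the log2 scale (SE 0.12, limma adjusted p = 0.0383), and the call was lost in 5 of the 8 fits with an array left out (adjusted p from 0.075 to 0.0924, without young replicate 1 or 2 or old replicate 2, 3 or 4). A further Il1r1 probe set, 1459777_at, read only 5.02 to 10.5 in the young and 5.11 to 12.9 in the old arrays, where the median probe set of an array read 128.6 to 135.4. At these intensities no change was detectable (log2 fold change 0.16, SE 0.30, limma adjusted p = 0.756).

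Nlrp3, the sensor of the best-known inflammasome, read 94.7, 83.8, 103 and 95 in young and 105, 128, 104 and 107 in old arrays. Old arrays lay above young ones, though 103 and 104 are adjacent values. All were below the median probe set of an array, which read 128.6 to 135.4. The log2 fold change of 0.23 (SE 0.09, 95% interval 0.03 to 0.43) did not pass (limma adjusted p = 0.0999).

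**Figure D2:**
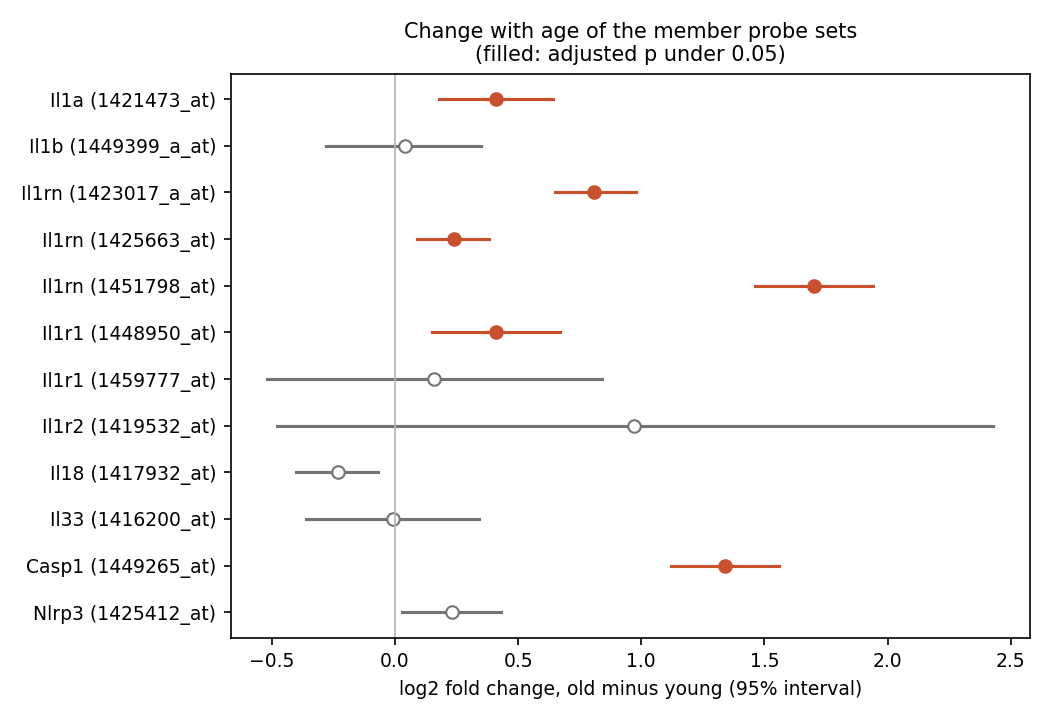
Log2 fold change of old over young for the 12 member probe sets (points) with 95% intervals (lines), filled where the limma adjusted p was under 0.05. The intervals of Casp1 and of Il1rn 1451798_at lie above 1, those of Il1b and Il33 lie on both sides of 0, and that of Il1r2 is the widest.

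Il1r2, the decoy receptor, had by far the widest spread of the members. It read 53.1, 51.1, 64.8 and 66.3 in young and 53.4, 592, 68.3 and 80.8 in old arrays. A single array, old replicate 2, stood apart, and the other 3 old arrays overlapped the young ones. The log2 fold change of 0.97 (SE 0.65, limma adjusted p = 0.326) fell to 0.19 without that array, and the ratio of the group medians was 0.34 on the log2 scale.

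Markers of neutrophils, cells that are known to carry Il1r2, were high in the same array. The summed intensity of the 8 measured neutrophil markers was 1198 to 1462 in young arrays, 18120 in old replicate 2, and 1553, 2676 and 2768 in old replicates 1, 3 and 4. S100a8, a calcium-binding protein abundant in neutrophils, read 7828 in that array but 346 to 888 in its 3 companions. Ngp, a granule protein of neutrophils, read 1496 there and 169 to 185 in the other 3. The receptors Csf3r and Cxcr2 were not raised to that extent, with 387 and 174 in old replicate 2, 327 to 337 and 140 to 144 in its companions, and 318 to 374 and 173 to 195 in young arrays. By limma 2 of the 8 were higher with age (S100a8 and Camp), 1 was lower (Cxcr2) and 5 did not pass. Over all genes, 11.8% were higher and 9.56% were lower. No marker of the list was at 0 in any array. Old replicate 2 was also the highest old array for Il1b (484) and Nlrp3 (128). The part of neutrophils in these values was not tested. Without this array the log2 changes of Il1b and Nlrp3 were -0.07 and 0.16, and those of Casp1 and Il1rn 1451798_at were 1.33 and 1.66, both past the threshold.

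**Figure D3:**
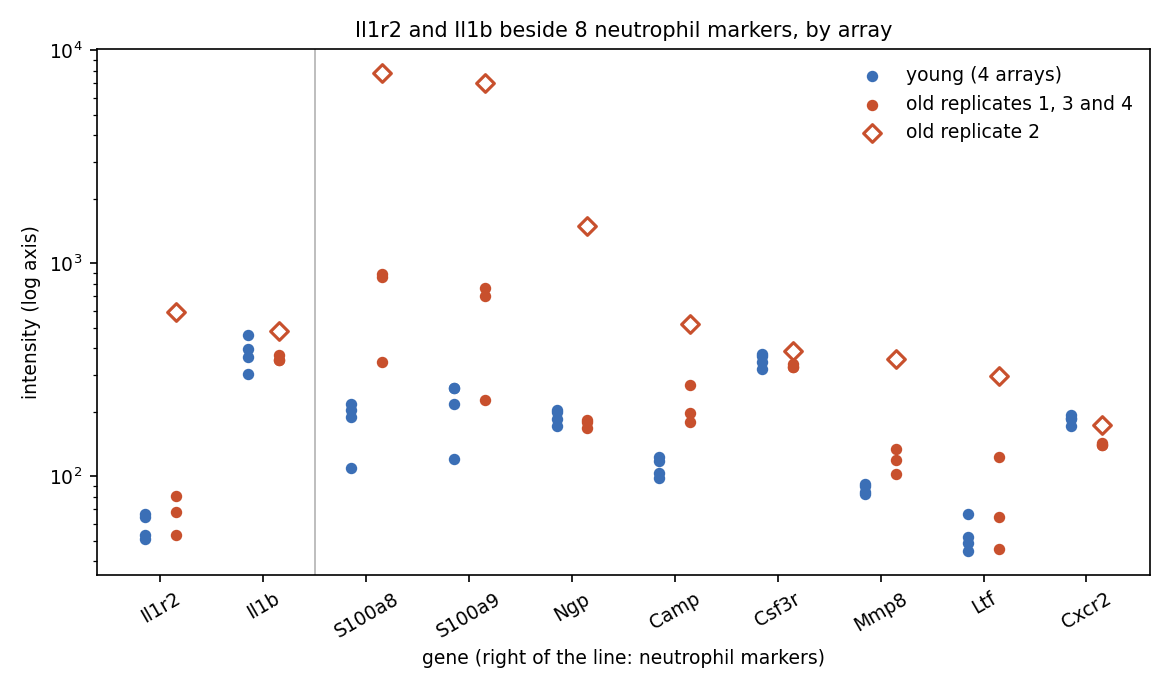
Intensity on a log axis of Il1r2, Il1b and 8 neutrophil markers in young arrays, in old replicates 1, 3 and 4, and in old replicate 2 (open diamonds). Il1r2, S100a8, S100a9 and Ngp are highest in old replicate 2 by a wide margin, and Il1b, Csf3r and Cxcr2 are not.

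The change of Casp1 was set against that of its partners array by array, as the log2 difference between 2 genes. Casp1 minus Il1b was -1.35 to -0.65 in the young and -0.05 to 0.64 in the old arrays, so that the balance moved toward the protease by 1.30 (SE 0.22). Casp1 minus Il18 moved by 1.57 (SE 0.13) and Casp1 minus Nlrp3 by 1.11 (SE 0.15), again with no overlap between the ages. Il18 minus Il18bp, its soluble inhibitor, moved by -1.32 (SE 0.15), from 3.02 to 3.28 in young down to 1.52 to 2.13 in old arrays. Each of these 4 differences had a raw p of 0.0286 in a two-sided exact permutation test, the smallest that 4 arrays against 4 allow. Adjusted over the 7 pairs this came to 0.05, which is at the threshold and not under it. For the representative probe set of Il1rn, the differences from Il1b (0.20, SE 0.19, exact permutation adjusted p = 0.4) and from Il1a (-0.17, SE 0.14, adjusted p = 0.4) did not pass. The direction of the latter turned with the Il1rn probe set: 1425663_at had the smallest change of the 3, and the difference was 1.29 with 1451798_at, a choice made by its p. Il1r2 minus Il1r1 moved by 0.56 (SE 0.76, exact permutation adjusted p = 0.914), and by -0.19 without old replicate 2.

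By representative probe sets, 4 of the 9 measured members were higher in old RPE/choroid (Il1a, Il1rn, Il1r1 and Casp1) and none was lower, beside 11.8% higher and 9.56% lower of 18193 genes. With an array left out the count of 4 was between 1 and 3, with 1 (Casp1) without old replicate 3. Their median log2 fold change was 0.24, against -0.02 over all genes. Casp1 alone also passed the study's bar, which was met upward by 1.13% of genes. Of 46 other genes of the pathway, 39 had a probe set of their own. Of these 15 were higher, 5 were lower and 19 did not pass, with a median log2 fold change of 0.11, and 4 passed the study's bar (Casp4, Naip5, Naip2 and Il18bp).

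The relatives of Casp1 rose with it. Casp4, the caspase that senses cytosolic lipopolysaccharide, read 95.3, 100, 85.6 and 93.3 in young and 207, 235, 279 and 214 in old arrays, a log2 fold change of 1.31 (SE 0.10, limma adjusted p = 6.2e-05). Casp12 had a log2 fold change of 0.88 (SE 0.09, adjusted p = 0.000307), and a further probe set of this gene had 0.89. Gsdmd, the pore-forming substrate of caspase 1 and caspase 4, had 0.33 (SE 0.08, adjusted p = 0.0182), a call lost without old replicate 3 (adjusted p = 0.0545). Thus 3 of 3 genes in this group were higher, beside 11.8% of all genes. Casp1, Casp4 and Casp12 follow one another directly in RefSeq's order of protein-coding genes on chromosome 9, and their sequences are related, and shared hybridisation was not tested.

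Among the adaptor and partners of the inflammasome 5 of 6 genes were higher, beside 11.8% of all genes. Panx1, a channel that releases ATP, had a log2 fold change of 0.75 (SE 0.10), and P2rx7, the ATP-gated channel that triggers Nlrp3, had 0.74 (SE 0.07). Pycard, the adaptor that joins sensor and caspase, read 434, 477, 448 and 478 in young and 669, 634, 815 and 653 in old arrays, a log2 fold change of 0.59 (SE 0.08, limma adjusted p = 0.00202). Of the other Pycard and P2rx7 probe sets, 1417347_at and 1446926_at for Pycard had -0.03 and -0.09 without passing, and 1419853_a_at and 1422218_at for P2rx7 had 1.03, which passed, and 0.09, which did not. Txnip, which binds Nlrp3 under oxidative stress, and Nek7, its mitotic kinase partner, had small rises of 0.29 and 0.20. Each lost its call in 5 of 8 fits with an array left out, and that of Nek7 was also lost under quantile normalization (limma adjusted p = 0.0727). A further Txnip probe set, 1415997_at, had 0.38 and passed (limma adjusted p = 0.00262), with no overlap between the ages. The further Nek7 probe sets 1416816_at and 1416817_at had 0.10 and 0.14 and did not pass. Brcc3, the deubiquitinase of Nlrp3, had -0.00 and did not pass.

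Of the other inflammasome sensors 2 of 8 were higher, beside 11.8% of all genes, both members of the Naip family, which recognise bacterial flagellin and secretion systems. Naip5 read 47.6, 48.7, 50.6 and 47.5 in young and 101, 96.7, 123 and 112 in old arrays. Naip2 read 80.9, 109, 89 and 80.3 in young and 180, 195, 223 and 192 in old ones. Neither overlapped between the ages, and the log2 fold changes were 1.15 (SE 0.08) and 1.14 (SE 0.11). The Naip genes are near-identical neighbours on chromosome 13, so the assignment of these signals to one copy is uncertain, and Naip6 beside them had 0.03 and did not pass. Aim2, which senses cytosolic DNA, had 0.11 (SE 0.09, limma adjusted p = 0.408).

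The interleukin 18 axis changed at its inhibitor and its receptor. Il18bp, the secreted protein that neutralises interleukin 18, read 188, 171, 160 and 168 in young and 303, 348, 501 and 334 in old arrays. All old arrays were above all young ones, with old replicate 3 the highest, and the log2 fold change was 1.09 (SE 0.14, limma adjusted p = 0.00116) or 0.94 without that array. Il18r1, the ligand-binding receptor chain, had 0.42 (SE 0.09, adjusted p = 0.0124). Il18rap, the accessory chain, had 0.18 (SE 0.09, adjusted p = 0.224) and did not pass. The study had listed Il18bp, Il18r1 and Casp4 on these arrays as well.

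Old replicate 3 was the highest old array for 10 of the 15 pathway genes that were higher and for 4 of the 6 member probe sets that were higher, Casp1 and Il1a among them. How often it was the highest over all probe sets was not counted. The same array had the highest summed intensity of T and NK cell markers (1511, where its companions had 1257 to 1339 and young arrays 1101 to 1304). Cd3e was the largest value in that sum, at 597 there and 535 to 689 in young arrays. The sum of mast cell markers was also highest in old replicate 3 (1217, with 788 to 1192 in its companions and 701 to 752 in young arrays). The sums of rod photoreceptor (5780), RPE (96303) and choroidal endothelial markers (8088) were the lowest there. The part of these cells was not tested. Without old replicate 3, Casp1 had a log2 change of 1.25, Casp4 1.22, Casp12 0.79 and Pycard 0.51, all past the threshold. The calls of Il1a (limma adjusted p = 0.0707), Il1rn 1425663_at (0.0825), Il1r1 (0.0866), Gsdmd (0.0545), Txnip (0.0666), Il36g (0.085) and Sigirr (0.0943) were lost without it. Calls were lost widely in that fit. Over all probe sets, the number higher went from 4154 to 2827 and the number lower from 3939 to 2135.

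Of the adaptors and kinases that carry the receptor's signal, 3 of 10 were higher, 1 was lower and 6 did not pass. Over all genes, 11.8% were higher and 9.56% were lower. Irak3, which restrains signalling from the receptor, had a log2 fold change of 0.69 (SE 0.08, limma adjusted p = 0.000898), and Irak1 and the kinase Map3k7 (TAK1) had 0.32 and 0.24. Tab1, a partner of TAK1, fell by 0.42 on the log2 scale (SE 0.06, adjusted p = 0.002). Myd88, the adaptor of the whole receptor family, read 545 to 617 in the young and 582 to 641 in the old arrays, with 0.05 (SE 0.06, adjusted p = 0.566). Irak1 and Map3k7 had further probe sets, 3 and 5, of which 1 and 0 passed.

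**Figure D4:**
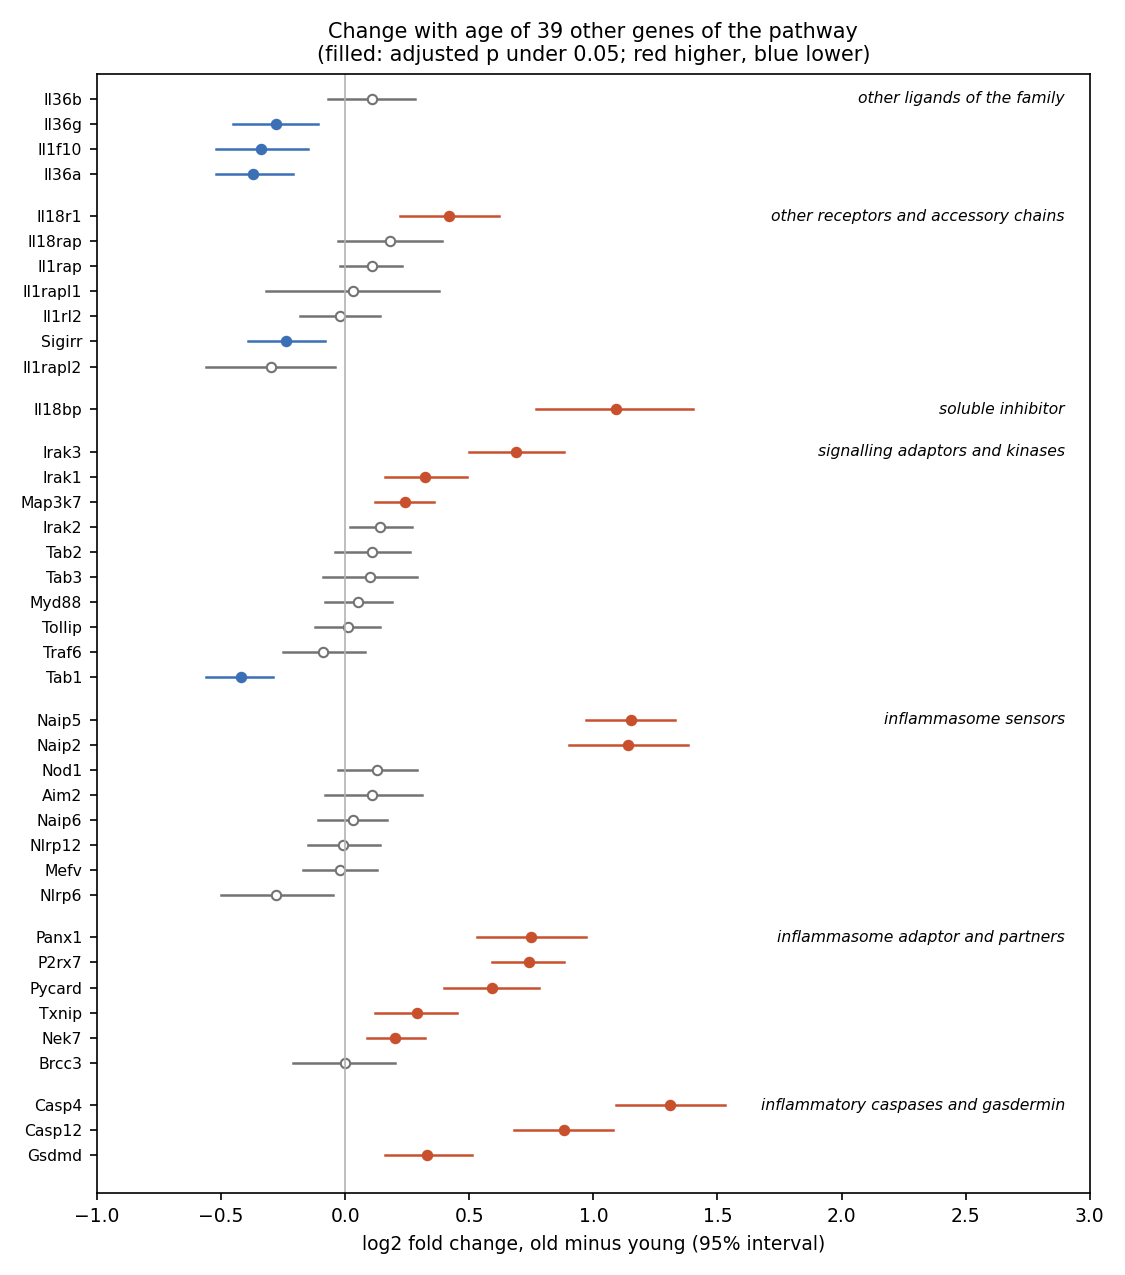
Log2 fold change of old over young for 39 other genes of the pathway by role, each by its representative probe set (points) with 95% intervals (lines), filled where the limma adjusted p was under 0.05. The caspase group and the adaptor group lie mostly to the right, and 3 of the 4 other ligands lie to the left.

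Of the 7 other receptors and accessory chains, Il18r1 was higher, Sigirr was lower and 5 did not pass. The shares over all genes were 11.8% higher and 9.56% lower. Il1rap, the accessory chain shared by the receptors of interleukin 1 and interleukin 33, read 134 to 138 in the young and 135 to 154 in the old arrays (log2 fold change 0.11, SE 0.06, limma adjusted p = 0.212). Sigirr, an inhibitory receptor, fell by 0.24 on the log2 scale (SE 0.07, adjusted p = 0.0453), a call lost under quantile normalization (0.0749) and median centring (0.0788) and in 7 of 8 fits with an array left out. In RefSeq's order the genes Il1r2, Il1r1, Il1rl2, Il1rl1, Il18r1 and Il18rap follow one another on chromosome 1. Of the 5 measured there, Il1r1 and Il18r1 passed and Il1r2, Il1rl2 and Il18rap did not.

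Of the 4 other ligands measured, 3 fell and none rose, beside 9.56% lower and 11.8% higher of all genes. Il36a read 101, 97, 110 and 113 in young and 85.9, 75.1, 82.6 and 83.1 in old arrays, and fell by 0.37 on the log2 scale (SE 0.07, limma adjusted p = 0.00826). Il1f10 fell by 0.34 (adjusted p = 0.022) and Il36g by 0.28 (adjusted p = 0.0309), while Il36b had 0.11 and did not pass. The interleukin 36 cytokines act mainly in skin and other epithelia. These genes lie beside Il1rn on chromosome 2, in the order Il36b, Il36g, Il36a, Il1f10 and Il1rn among the genes measured. Without one array or another the calls of Il36g and Il1f10 were lost in 6 and 4 of 8 fits, and that of Il36a in none. None of the 5 measured keratinocyte markers passed by limma through its representative probe set, although 1452027_a_at of Trp63 was lower (log2 fold change -0.47, adjusted p = 0.0049). The markers had a summed intensity of 2840 in young replicate 4, 1269 in old replicate 4 and from 686 to 828 elsewhere.

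Genes that interleukin 1 induces, although other signals induce them too, were higher in 8 of 18 cases and lower in none by limma, also none at an unadjusted p under 0.05, with a median log2 fold change of 0.70. Of all genes 11.8% were higher and 9.56% were lower, with a median of -0.02. The study had listed several of them, Mmp3, Lcn2 and Cxcl5 included, as changed on these arrays. Matrix metalloproteinases changed most. Mmp3 read 223, 423, 313 and 296 in young and 2996, 3290, 3995 and 3431 in old arrays, a log2 fold change of 3.48 (SE 0.17, limma adjusted p = 2.6e-05), and Mmp13 had 3.02 (SE 0.27). The iron-binding Lcn2 had 2.21 (SE 0.41), the chemokine Cxcl5 2.06 (SE 0.23) and the acute phase protein Saa3 1.45 (SE 0.17). The adhesion molecule Icam1 had 1.14 (SE 0.07), and its relative Vcam1 read 657 to 766 when young and 1316 to 1599 when old (limma adjusted p = 6.8e-05). The NF-kappaB regulator Nfkbiz had 0.96 (SE 0.18), but its further probe sets 1448728_a_at and 1457404_at had 0.30 and 0.09 and did not pass. Old replicate 2 was the highest old array for 6 of these 8, and Lcn2 read 1573 there and 302 to 729 in the other old arrays, with a log2 change of 1.79 without it.

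Other classical targets did not pass by their representative probe set. The cytokine Il6 read 16 to 21.8 in the young and 18.8 to 35.3 in the old arrays (limma adjusted p = 0.127). Ptgs2, the inducible cyclooxygenase, had a log2 fold change of 0.18 (SE 0.24, adjusted p = 0.646), and Ccl2 had 0.12 (SE 0.07, adjusted p = 0.242). The study reported Ccl2 as increased with age on its arrays, by real-time PCR and as protein. Its probe set here, 1420380_at, did not show that rise. Cxcl1 had 0.01 by its representative probe set, but its probe sets 1419209_at and 1457644_s_at had 1.76 and 0.91 and passed. Nfkbia had 0.36 by its representative probe set (limma adjusted p = 0.0637). Its probe sets 1438157_s_at, 1448306_at and 1449731_s_at had 0.61, 0.59 and 0.60 and passed, and 1420089_at had 0.33 and did not. With any probe set allowed, 10 of the 18 genes were higher. This rule is looser, and the share of all genes that meet it was not counted.

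The arrays were alike in scale, with median intensities from 128.6 to 135.4, and within an age no pair of arrays correlated below 0.991 on the log2 scale. Markers of the labelled tissue were strong, and those of the RPE summed to 111431 to 112567 in the young and 96303 to 105154 in the old arrays, with 6 of 10 lower at an adjusted p under 0.05. Macrophage markers were higher in 5 of 8 cases (Cd68, Adgre1, Aif1, Lyz2 and Mrc1). Cd14 (log2 fold change 1.11), Csf1r (-0.04) and Cx3cr1 (-0.18) did not pass. The summed intensity of the macrophage markers was 19527 to 22099 in the young and 28147 to 30298 in the old arrays. Mast cell markers were higher in 5 of 6 cases, and Kit was lower (log2 fold change -0.58, limma adjusted p = 0.0118). T and NK cell markers were higher in 4 of 7 cases, and endothelial markers lower in 5 of 6. Over all genes, 11.8% were higher and 9.56% were lower. Macrophages are known to express Casp1, Il1rn and Pycard, and the part of these cells in the rises of those genes was not tested. Rod photoreceptor markers were also present and varied widely, from 5780 to 15759 in sum.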

How the data were processed

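RPE/choroid of 4 young and 4 old mouse pools was hybridised to Affymetrix Mouse 430 2.0 arrays, 1 array per pool. The deposited values are linear intensity values that the authors had normalised. Their methods name RMA, Dchip2006 and BRB-ArrayTools, and which of them gave these values is not given in the sources used here. Detection calls were not used here, so low intensities cannot be told from background.

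Values were floored at 1 and taken to log2. limma 3.58.1 (lmFit and eBayes, R 4.3.3) compared old with young over 45037 probe sets without the 64 controls, with Benjamini-Hochberg adjustment and a threshold of 0.05. GEO's platform annotation tied 34945 probe sets to 1 gene each, and Il36a, Il36b and Il36g carry older names there. Differences between genes or probe sets were tested by exact permutation in Python 3.11.15. The fits were tested on simulated data. Alternatives were quantile normalization, median centring, a filter at the median level, log2(value + 16), a trended robust variance, a replicate block, each array left out, and other thresholds or probe sets.

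The members and lists were chosen with earlier results of these data known. Named were all members, every pathway or target gene past the threshold, 8 pathway genes whatever their values, and markers a result turned on. Il36b, Brcc3, Naip6, Il1rl2, Il6, Ptgs2, Ccl2, Cxcl1, Nfkbia, Kit, Cd14, Csf1r and Cx3cr1 were added after their values were seen.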

Additional observations from a re-analysis of the deposited data

Results flagged for a closer look

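In groups of 4 arrays, an array was singled out where its gap to the nearest of the others took up more of the group's whole range than Dixon's 95% critical value allows. Of 80 groups checked, 6 had such an array, and chance gives about 1 in 20.

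In old replicate 2, Il1r2 read 592 against 53.4 to 80.8 in the other old arrays, Il1b read 484 against 351 to 370, and Nlrp3 read 128 against 104 to 107. The summed neutrophil markers and the summed macrophage markers were highest in the same array, and the part of either cell type in these values was not tested. Casp12 read 362 in old replicate 3 against 279 to 289 in the other old arrays. Il1f10 read 142 in old replicate 4 against 160 to 163. Irak1 read 784 in young replicate 1 against 905 to 930 in the other young arrays.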

How the results depend on the processing

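Casp1 and the Il1rn probe sets 1451798_at and 1423017_a_at kept their direction and their call in every fit that tested them, and the targets' count of 8 higher stayed between 7 and 10. Of the members, 6 probe sets were higher, 2 with low probe sets removed (which takes the Il1a and Il1rn probe sets out of the test), 2 under the fold rule and 3 to 5 with an array left out, 3 without old replicate 3. Of the member genes 4 were higher, 2 with the filter, 1 under the fold rule and 1 to 3 with an array left out, with 2 without young replicate 1, young replicate 2 or old replicate 4 and 1 without old replicate 3. None was lower, but 1 probe set and 1 gene, Il18, passed under quantile normalization, the filter, log2(value + 16) and the trended variance. Pathway genes higher numbered 15, and 4 under the fold rule. Pathway genes lower numbered 5, 0 under the fold rule, 3 with the replicate block and 2 to 4 with an array left out, 2 without young replicate 1 or 4. No gene pair passed an adjusted p of 0.05, and 6 did with each gene's probe set of smallest p, a choice made on the outcome, under which Il1rn minus Il1a turned from -0.17 to 1.29. The cause of these shifts was not tested beyond what the settings themselves remove. With an array left out the counts were 0 gene pairs and 2 probe set pairs, as with all arrays. The smallest p that the permutation test allows holds the separated gene pairs at an adjusted 0.05. These equal counts therefore say little about stability. The pair of Il1rl1 and Il33 could not be compared.

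Replicate numbers did not pair the arrays: deviations of same-numbered arrays correlated by 0.0971, 0.019, 0.0218 and 0.0427 and were highest with their own number for replicate 1 alone. With the number as a block, the calls of Il1rn 1425663_at (adjusted p = 0.0721), Txnip (0.0565), Nek7 (0.0737), Sigirr (0.0604), Il36g (0.0788) and Il1f10 (0.058) were lost, which is not read as a weaker effect. Il18 had 0.0885.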
